A study of Mus musculus with 6 samples.

Results

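The core circadian clock was described in liver through 10 genes: Arntl, Npas2, Clock, Per1, Per2, Per3, Cry1, Nr1d1, Dbp and Ciart. A gene was read where the array annotation gave it a probe set, a group of short probes that report 1 transcript, naming that gene and no other, with the brightest by the mean of the 6 arrays taken for a gene on more than 1 set. By that rule 7 of the 10 genes were measured, among 14860 genes in all, each by 1 probe set. Per2 and Nr1d1 lie only on probe sets that also name a second gene, and no probe set in the annotation used here names Ciart. The samples were livers of 3 DeltaHepKlf6 mice, in which Klf6 was knocked down in hepatocytes only, and of 3 wild type littermates (Control). Both groups were on a high-fat diet for 8 weeks, and 1 Affymetrix exon array was run per mouse. Per the labels, DeltaHepKlf6 mice had improved glucose tolerance and less steatosis, and Control mice had glucose intolerance and marked steatosis. How the knockdown was made, the sex and age of the mice, and the hour at which they were killed are not given in the sources used here.

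The mammalian clock is a feedback loop of transcription. The proteins of Arntl (also called Bmal1) and of Clock or its relative Npas2 pair and switch on the Per and Cry genes and Nr1d1, Dbp and Ciart through E-boxes, and the Per and Cry proteins then shut that pair down. Nr1d1 and its relative Nr1d2 repress Arntl and Npas2 through a further element, the RRE, on which the Ror proteins activate, while Dbp, Tef and Hlf activate and Nfil3 represses through D-boxes. In mouse liver Arntl and Npas2 therefore peak near the end of the night, and Nr1d1, Dbp, Ciart and the Per genes around the turn from day to night, with Cry1 later. These genes are known for some of the widest daily swings in the liver, so that their levels differ between livers collected at different hours.

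The 3 kinds of element are shown in windows of 3 of the measured genes, chosen because they hold a match. The windows run from 250 bases before to 50 bases after an annotated transcript start, on the gene's own strand, in RefSeq on GRCm38.p6. Capitals mark the RRE (searched by its core, GTAGGTNA, letters taken from the known Arntl promoter) in Arntl at chr7:113207261-113207560 on the plus strand, the E-box (CACGTG) in Per1 at chr11:69098699-69098998 on the plus strand, and the D-box (TTATGTAA) in Per3 at chr4:151044616-151044915 on the minus strand.
Arntl: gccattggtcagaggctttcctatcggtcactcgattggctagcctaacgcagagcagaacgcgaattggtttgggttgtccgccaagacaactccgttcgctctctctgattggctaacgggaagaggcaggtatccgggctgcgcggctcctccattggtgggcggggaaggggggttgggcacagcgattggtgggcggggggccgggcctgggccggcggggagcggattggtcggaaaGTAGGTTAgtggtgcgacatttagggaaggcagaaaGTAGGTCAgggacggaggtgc
Per1: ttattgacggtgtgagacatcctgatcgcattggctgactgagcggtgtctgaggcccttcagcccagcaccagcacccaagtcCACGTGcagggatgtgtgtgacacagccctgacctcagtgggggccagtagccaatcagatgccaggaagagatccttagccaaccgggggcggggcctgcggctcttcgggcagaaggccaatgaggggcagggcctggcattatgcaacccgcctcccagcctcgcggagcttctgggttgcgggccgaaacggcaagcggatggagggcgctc
Per3: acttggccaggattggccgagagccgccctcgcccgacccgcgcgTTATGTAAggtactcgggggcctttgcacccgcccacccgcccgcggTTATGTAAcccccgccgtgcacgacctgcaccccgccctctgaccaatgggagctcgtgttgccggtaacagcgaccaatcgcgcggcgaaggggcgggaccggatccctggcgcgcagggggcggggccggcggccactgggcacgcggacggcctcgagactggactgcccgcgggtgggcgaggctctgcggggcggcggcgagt
The Arntl window holds 2 RRE matches, which begin 7 bases before and 29 bases after the start, the Per1 window 1 E-box that begins 166 bases before it, and the Per3 window 2 D-boxes that begin 205 and 158 bases before it. Both strands were searched, and the motifs do not overlap one another. Of 32851 promoter windows of mouse genes, 7.15% hold the E-box, 0.938% the D-box and 2.14% the RRE core. Promoter windows were at hand for 9 of the 10 genes, 13 windows in all, and among them the E-box also occurs once in Cry1 and 3 times in Ciart. The windows of Npas2, Clock, Dbp and Nr1d1 and a further window of Per1 hold none of the 3 motifs, which says only that these letters are not in those windows. A match is a description of letters and not evidence of binding in these livers.

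Klf6, the targeted gene, had log2 values of 5.93, 5.43 and 5.45 in DeltaHepKlf6 1, 2 and 3, against 6.80, 6.09 and 5.88 in Control 1, 2 and 3, a difference of -0.65 ± 0.28 (SE) that limma did not call (unadjusted p = 0.0587, adjusted p = 0.998). DeltaHepKlf6 1 lay just above Control 3, so the groups overlapped. With single arrays left out, the Klf6 difference ran from -0.84 without Control 3 to -0.38 without Control 1. The hepatocyte markers Alb, Ttr, Cyp2e1 and Tat lay between 12.26 and 13.12 in the 6 arrays. Array medians lay between 5.49 and 5.55, and interquartile ranges between 2.76, in DeltaHepKlf6 3, and 3.29, in Control 1. In Control 3 the 7 measured exocrine pancreas markers had a mean of 11.25, against 4.82 to 5.18 in each other array. Values of the clock genes are log2 signals, on which 1 unit is a 2-fold difference. Signals of different genes are not comparable with each other, and in whole liver fewer cells of a type and less RNA per cell cannot be told apart.

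Across the 6 livers the 7 measured core clock genes lay close together, and none of them passed the test between DeltaHepKlf6 and Control. The widest gap between any 2 of the 6 livers was 1.73-fold, in Per3, and the narrowest was 1.27-fold, in Per1. Of the 7 measured genes, 3 were higher and 4 lower in DeltaHepKlf6, with a median log2 difference of -0.09, against -0.05 over all genes. Limma called 0 of the 7 at an adjusted p under 0.05, where it called 0.0% of the 23332 probe sets, and 0 of the 7 had an unadjusted p under 0.05, against 3.21% of all probe sets. The groups did not overlap in 1 of the 7 genes, Npas2, against 6.72% of all probe sets.

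**Figure D1:**
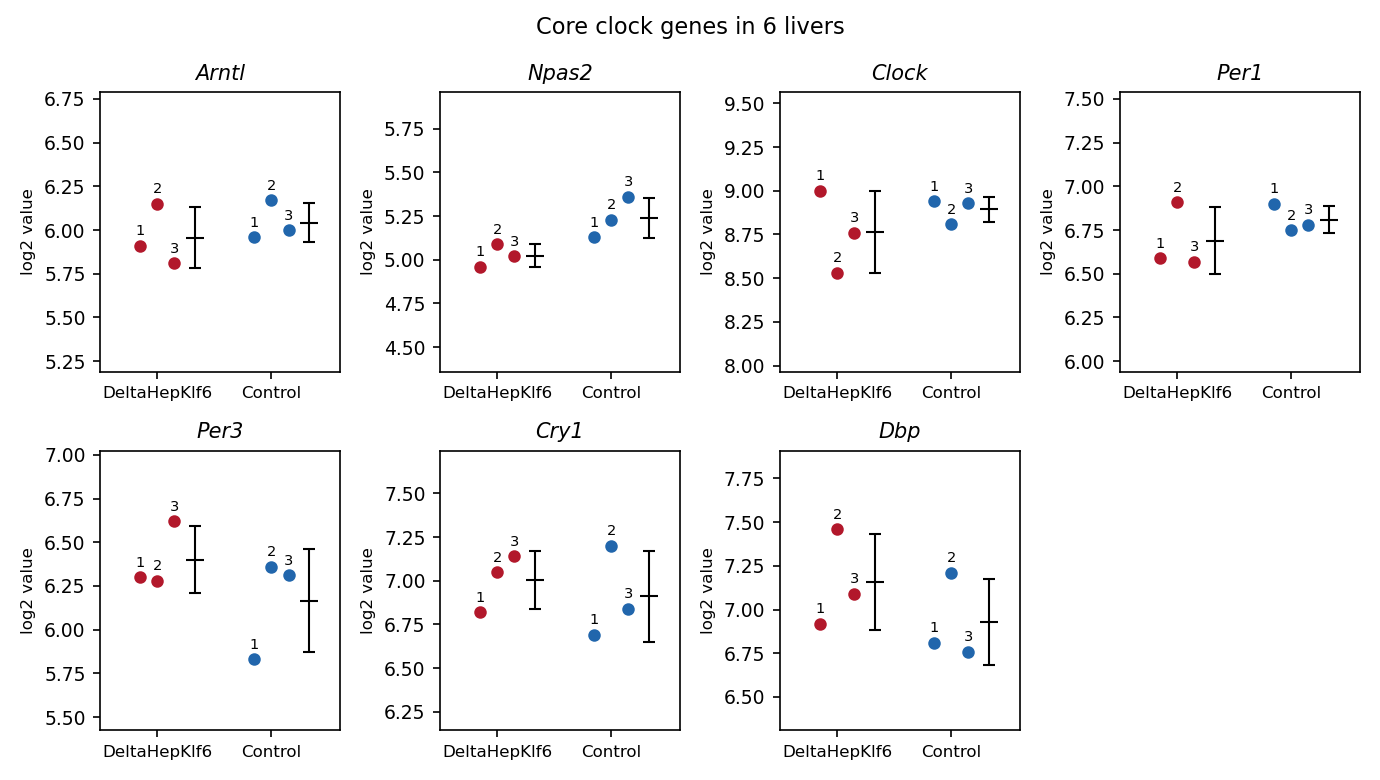
Log2 value (y axis, spanning 1.6 units in every panel) of the 7 measured core clock genes in each liver, with the mouse number beside each point and mean ± SD (n = 3) as a black bar; DeltaHepKlf6 in red, Control in blue. The 3 DeltaHepKlf6 livers lie below the 3 Control livers in Npas2, and the groups overlap in the other 6 genes.

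The 3 activator genes had lower means in DeltaHepKlf6, with confidence intervals that include 0. Arntl, the partner that the activator pair cannot do without, was 5.91, 6.15 and 5.81 in DeltaHepKlf6 1, 2 and 3, against 5.96, 6.17 and 6.0 in Control 1, 2 and 3. In both groups mouse 2 was the highest, and DeltaHepKlf6 1 and 3 lay below every Control value. The log2 difference was -0.09 ± 0.15 (SE), with a 95% confidence interval of -0.45 to 0.28 (limma, unadjusted p = 0.584). Npas2, the stand-in for Clock in the pair, was 4.96, 5.09 and 5.02 in DeltaHepKlf6 livers, against 5.13, 5.23 and 5.36 in Control livers. Every DeltaHepKlf6 value lay below every Control value, with DeltaHepKlf6 2 and Control 1 closest to each other. The means were 5.02 ± 0.07 in DeltaHepKlf6 and 5.24 ± 0.12 in Control (SD, n = 3 each), a difference of -0.22 ± 0.13 (SE) with an interval of -0.53 to 0.10 (limma, unadjusted p = 0.147). Npas2 is a dim probe set, and differences of dim sets are compressed by background signal. Clock was 9.0, 8.53 and 8.76 in DeltaHepKlf6 livers, against 8.94, 8.81 and 8.93 in Control livers. The DeltaHepKlf6 livers thus held both the highest and the lowest Clock value, and the difference was -0.13 ± 0.16 (SE).

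The genes driven by the pair did not move as a block. Per1, a repressor of the loop that also responds within minutes to hormones and stress, was 6.59, 6.91 and 6.57 in DeltaHepKlf6 livers, against 6.90, 6.75 and 6.78 in Control livers. Here DeltaHepKlf6 2 stood at the top of the 6 and the other DeltaHepKlf6 livers at the bottom, with a difference of -0.12 ± 0.15 (SE). Per3, its relative, was 6.30, 6.28 and 6.62 in DeltaHepKlf6 livers, against 5.83, 6.36 and 6.31 in Control livers. The low value of Control 1 set most of the Per3 difference of 0.23 ± 0.20 (SE), with an interval of -0.25 to 0.71. Without Control 1 it was 0.065. Dbp, the transcription factor that passes the rhythm on to many liver genes, was 6.92, 7.46 and 7.09 in DeltaHepKlf6 livers, against 6.81, 7.21 and 6.76 in Control livers. As with Arntl, mouse 2 was the highest in both groups, and the groups overlapped. The means were 7.16 ± 0.28 in DeltaHepKlf6 and 6.93 ± 0.25 in Control (SD, n = 3 each), a difference of 0.23 ± 0.21 (SE) with an interval of -0.27 to 0.73 (limma, unadjusted p = 0.306). Cry1, the repressor that peaks after the Per genes, was 6.82, 7.05 and 7.14 in DeltaHepKlf6 livers, against 6.69, 7.20 and 6.84 in Control livers. Its highest and lowest values both came from Control livers, and the difference of 0.09 ± 0.18 (SE) became -0.017 without Control 1. For these 7 genes limma's adjusted p was 0.998, and the intervals, with bounds between -0.53 and 0.73, mean that differences up to that size could not be told from 0 with 3 mice per group.

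Of the other core genes, Per2 and Nr1d1 had only values that cannot be given to 1 gene, and no value was at hand for Ciart. The probe set that names Per2 together with 9830107B12Rik read 6.59, 6.76 and 6.75 in DeltaHepKlf6 livers, against 6.83, 6.58 and 6.77 in Control livers. The probe set that names Nr1d1 together with Thra, a thyroid hormone receptor gene, read 8.07, 8.20 and 8.02 in DeltaHepKlf6 livers, against 9.92, 8.82 and 8.23 in Control livers. Control 1 stood far above the rest on it, and the difference of -0.89 ± 0.415 (SE; limma, unadjusted p = 0.0730) was -0.43 without that liver. The groups did not overlap on it, with DeltaHepKlf6 2 at 8.20 just below Control 3 at 8.23, as in 6.72% of all probe sets. Which of the named genes these signals come from was not tested.

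**Figure D2:**
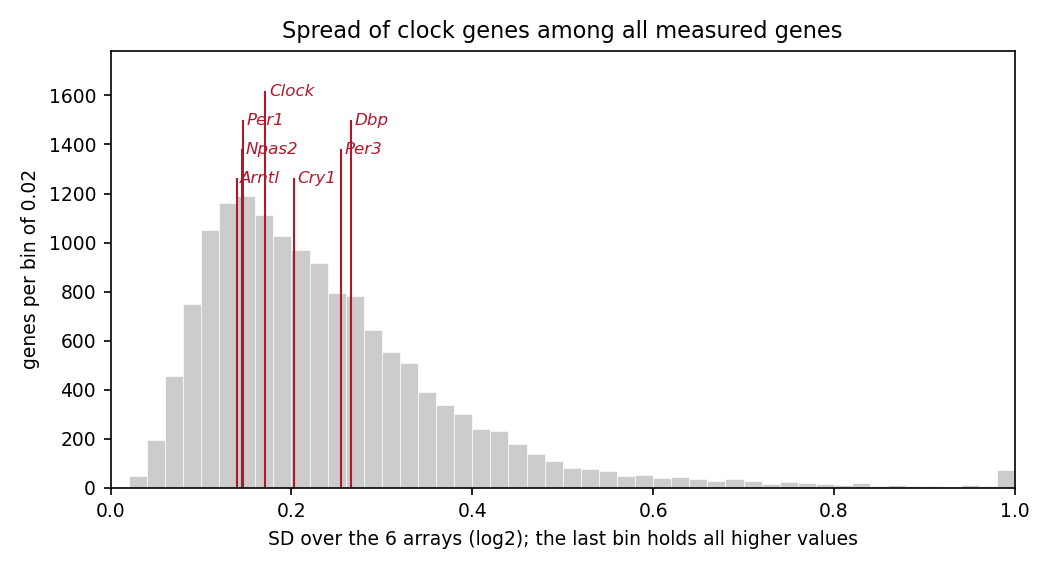
Number of genes (y axis) by their SD over the 6 arrays (x axis, log2 units, bins of 0.02) for 14860 genes in grey, with the 7 measured core clock genes as red lines. Arntl, Npas2, Clock, Per1 and Cry1 lie below the median of all genes, 0.21, and Per3 and Dbp above it.

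The spread of the 7 measured clock genes over the 6 livers lay in the middle range of all genes. The SD over the 6 arrays was 0.14 for Arntl, 0.15 for Npas2 and Per1, 0.17 for Clock and 0.20 for Cry1, below the median of 0.21 over all genes. It was 0.26 for Per3 and 0.27 for Dbp, which exceeded 63.9% and 66.7% of genes. The pooled SD within groups had a median of 0.17 over the 7 genes, against 0.21 over all genes. The plot of spreads shows none of the 7 measured clock genes in the upper tail of all genes. It does not hold the probe set shared by Nr1d1 and Thra, which ran from 8.02 in DeltaHepKlf6 3 to 9.92 in Control 1. For comparison, Rgs16, a regulator of G protein signalling that cycles daily in mouse liver, had an SD above 99.65% of genes.

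The opposition of the 2 arms was used to place the 6 livers relative to each other. Each gene was centred on its mean over the 6 arrays. The day arm is the mean of Per1, Per3 and Dbp, as the other day genes were not measured singly, and the night arm the mean of Arntl and Npas2. The phase contrast, day arm minus night arm, is higher in a liver whose day genes are high relative to Arntl and Npas2. It was 0.04, 0.14 and 0.22 in DeltaHepKlf6 1, 2 and 3, against -0.16, -0.05 and -0.19 in Control 1, 2 and 3. Every DeltaHepKlf6 liver thus had a higher contrast than every Control liver, a separation that 6.72% of single probe sets also show. The 6 livers spanned 0.41 log2 units, or 1.33-fold. Over the 6 arrays Pearson r with Arntl was 0.55 for Dbp, 0.65 for Per1 and -0.20 for Per3. The r values of Dbp and Per1 were thus positive, though neither passed a test. Whether a higher contrast reflects a different clock phase was not tested. The mean was 0.13 ± 0.09 in DeltaHepKlf6 and -0.13 ± 0.07 in Control (SD, n = 3 each), a difference of 0.27 log2 units that is given without a test. The contrast does not hold the probe sets shared by Per2 or Nr1d1 with another gene, nor Nr1d2, whose differences of -0.03, -0.89 and -0.10 have the opposite sign to that of the day arm. Whether the contrast would still separate the groups with the shared sets added was not tested. Both arms contributed, with a difference of 0.11 in the day arm and of -0.15 in the night arm, and in each arm alone the groups overlapped. Night arm values were -0.13, 0.05 and -0.15 in DeltaHepKlf6 livers, against -0.02, 0.13 and 0.11 in Control livers, and day arm values were -0.09, 0.19 and 0.07 in DeltaHepKlf6 livers, against -0.18, 0.08 and -0.07 in Control livers. Per1 ran against the rest of its arm, and without it the difference in the contrast was 0.38. With any other single gene left out it was between 0.20 and 0.33, and with any single array left out between 0.22 and 0.31. When each gene was also divided by its SD, the contrast was 0.42, 0.49 and 1.16 SD units in DeltaHepKlf6 livers, against -0.39, -0.64 and -1.04 in Control livers. The hour of the day to which any of these livers belongs cannot be read from 1 liver per mouse without a reference series.

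**Figure D3:**
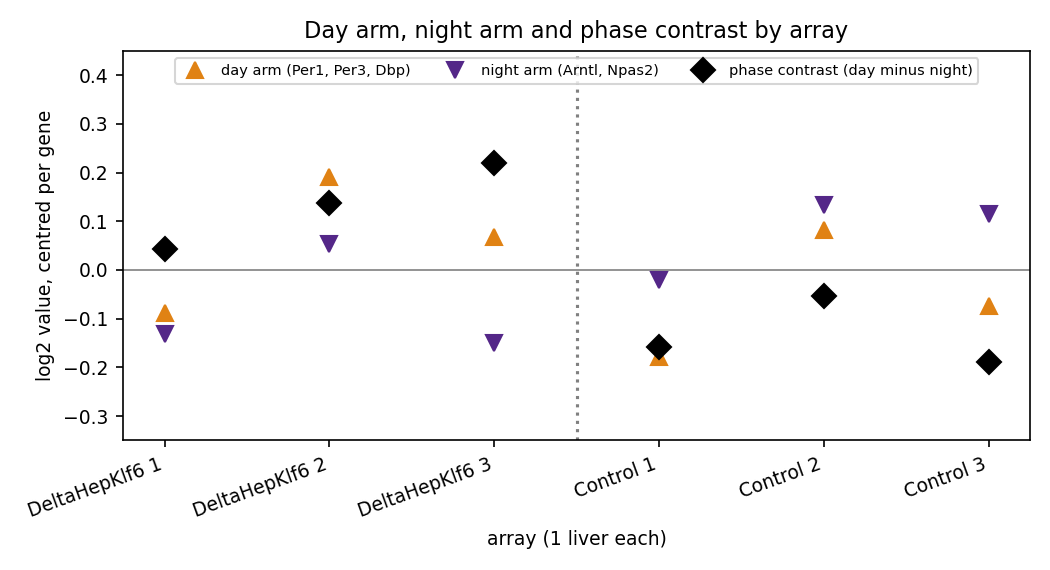
Centred log2 value (y axis) of the day arm (upward triangles), the night arm (downward triangles) and the phase contrast (diamonds) in each of the 6 livers (x axis). The contrast lies above 0 in the 3 DeltaHepKlf6 livers and below 0 in the 3 Control livers, and the groups overlap in either arm alone.

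No opposition between Arntl and the day genes passed a test among these livers. Over the 6 arrays, Dbp and Arntl had a Pearson r of 0.55 (exact permutation p = 0.256) and a Spearman rho of 0.37 (exact permutation p = 0.497), so the sign was that of genes high in the same livers. Control 2 is farthest from the median of Arntl, and DeltaHepKlf6 2 and 3 are equally far after it, so r was taken again without Control 2 and either of these. For Dbp it was -0.998 without DeltaHepKlf6 2 and 0.84 without DeltaHepKlf6 3, so the sign rests on single livers. Per1 and Arntl had r = 0.65 (exact permutation p = 0.167) and rho = 0.60 (exact permutation p = 0.242), with r = 0.77 and 0.68 without the same pairs of arrays. Per3 and Arntl had r = -0.20 (exact permutation p = 0.756) and rho = -0.14 (exact permutation p = 0.803), with r = -0.66 and 0.25. Within the activator side, Npas2 had r = 0.47 (exact permutation p = 0.356) and rho = 0.66 (exact permutation p = 0.175) with Arntl, with r = 0.74 and 0.18. Clock had r = -0.46 (exact permutation p = 0.361) and rho = -0.31 (exact permutation p = 0.564), with r = 0.73 and -0.97. Cry1 had r = 0.31 (exact permutation p = 0.524) and rho = 0.37 (exact permutation p = 0.497), with r = -0.83 and 0.85. The sign of r thus turned with the arrays left out for Dbp, Per3, Clock and Cry1, and it stayed positive for Per1 and Npas2. After adjustment over the 6 relations the smallest p was 0.542 for r and 0.677 for rho, so neither opposition nor joint movement with Arntl passed. Among all genes, these r values with Arntl stood between the 7.49th percentile, for Clock, and the 86.6th, for Per1. The first principal component of the 7 centred genes held 55.9% of their variance. Its weights were 0.62 for Dbp, 0.49 for Cry1, 0.48 for Per3 and -0.36 for Clock. They were small for Arntl (0.12), Npas2 (-0.07) and Per1 (-0.06), so it says little about the night arm or Per1. On this component the livers ran from -0.54 in Control 1 to 0.42 in DeltaHepKlf6 2, with the groups interleaved.

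**Figure D4:**
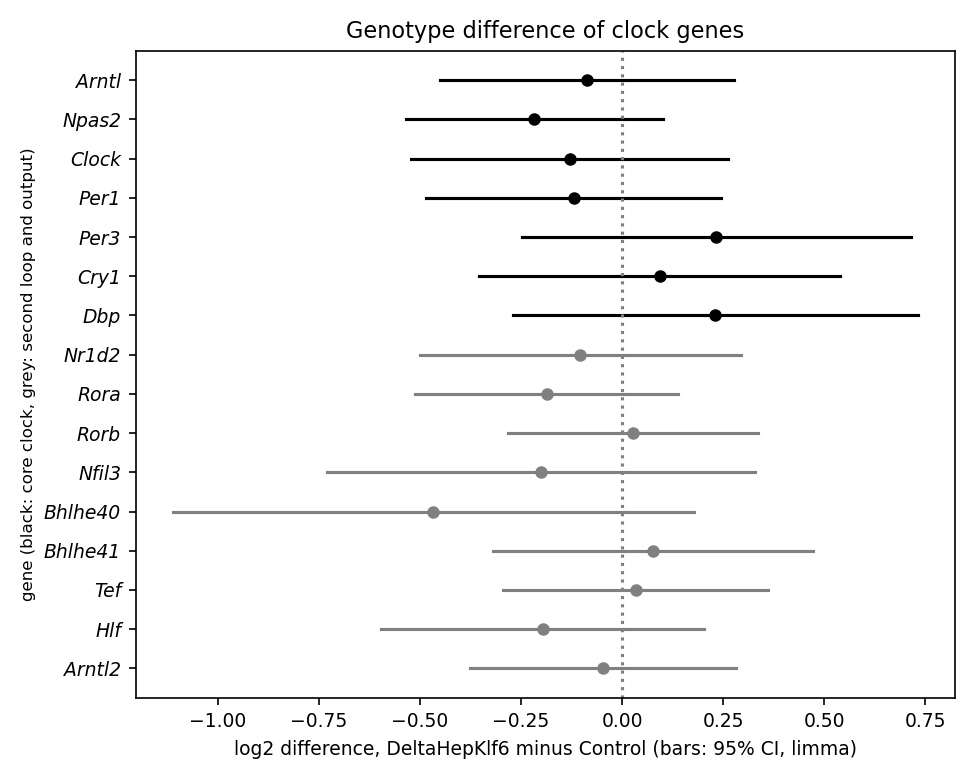
Log2 difference, DeltaHepKlf6 minus Control (x axis), with its 95% confidence interval from limma, for the 7 measured core clock genes in black and 9 genes of the second loop and the output in grey (n = 3 per group). The 16 intervals all include 0, and the widest belongs to Bhlhe40.

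The second loop and the output regulators were read from a list of 11 genes, of which 9 were measured, 3 of them higher and 6 lower in DeltaHepKlf6 with a median log2 difference of -0.10. Limma called 0 of the 9, with 0 at an unadjusted p under 0.05. Nr1d2, the measured repressor of the RRE, was 9.11, 8.91 and 8.88 in DeltaHepKlf6 livers, against 8.82, 9.21 and 9.18 in Control livers. The lowest Nr1d2 value was thus that of Control 1, the liver that was highest on the probe set shared by Nr1d1 and Thra. The activator Rora was 8.77, 8.52 and 8.67 in DeltaHepKlf6 livers, against 8.76, 8.86 and 8.90 in Control livers, a difference of -0.19 ± 0.13 (SE) with 1 DeltaHepKlf6 liver just above the lowest Control liver. With the RRE matches in the Arntl promoter in view, these are the values of its measured regulators beside an Arntl difference of -0.09. Rorb was dim, between 2.89 and 3.10.

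Among the regulators that act on D-boxes such as those shown for Per3, the activators Tef and Hlf and the repressor Nfil3 were measured beside Dbp. Tef kept to between 7.24 and 7.52 in the 6 livers, with a difference of 0.03 ± 0.14 (SE). Hlf was 8.76, 9.04 and 8.54 in DeltaHepKlf6 livers, against 9.02, 8.94 and 8.97 in Control livers, so the Control livers were alike and the DeltaHepKlf6 livers spread on both sides of them. Nfil3 was 9.72, 9.97 and 9.55 in DeltaHepKlf6 livers, against 10.30, 9.92 and 9.62 in Control livers. Its difference of -0.20 ± 0.22 (SE) rested on Control 1 and was -0.023 without it. Bhlhe40, a repressor that competes for E-boxes, was 8.29, 8.69 and 7.81 in DeltaHepKlf6 livers, against 8.84, 8.93 and 8.42 in Control livers, with an SD over the 6 arrays above 89.95% of genes. Its difference of -0.47 ± 0.27 (SE; limma, unadjusted p = 0.128, adjusted p = 0.998) had the largest size among the 9, and it was -0.24 without DeltaHepKlf6 3. Bhlhe41, its relative, was a dim set with a difference of 0.08 ± 0.16 (SE). Arntl2, the relative of Arntl, was dim too, with -0.05 ± 0.14 (SE).

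**Figure D5:**
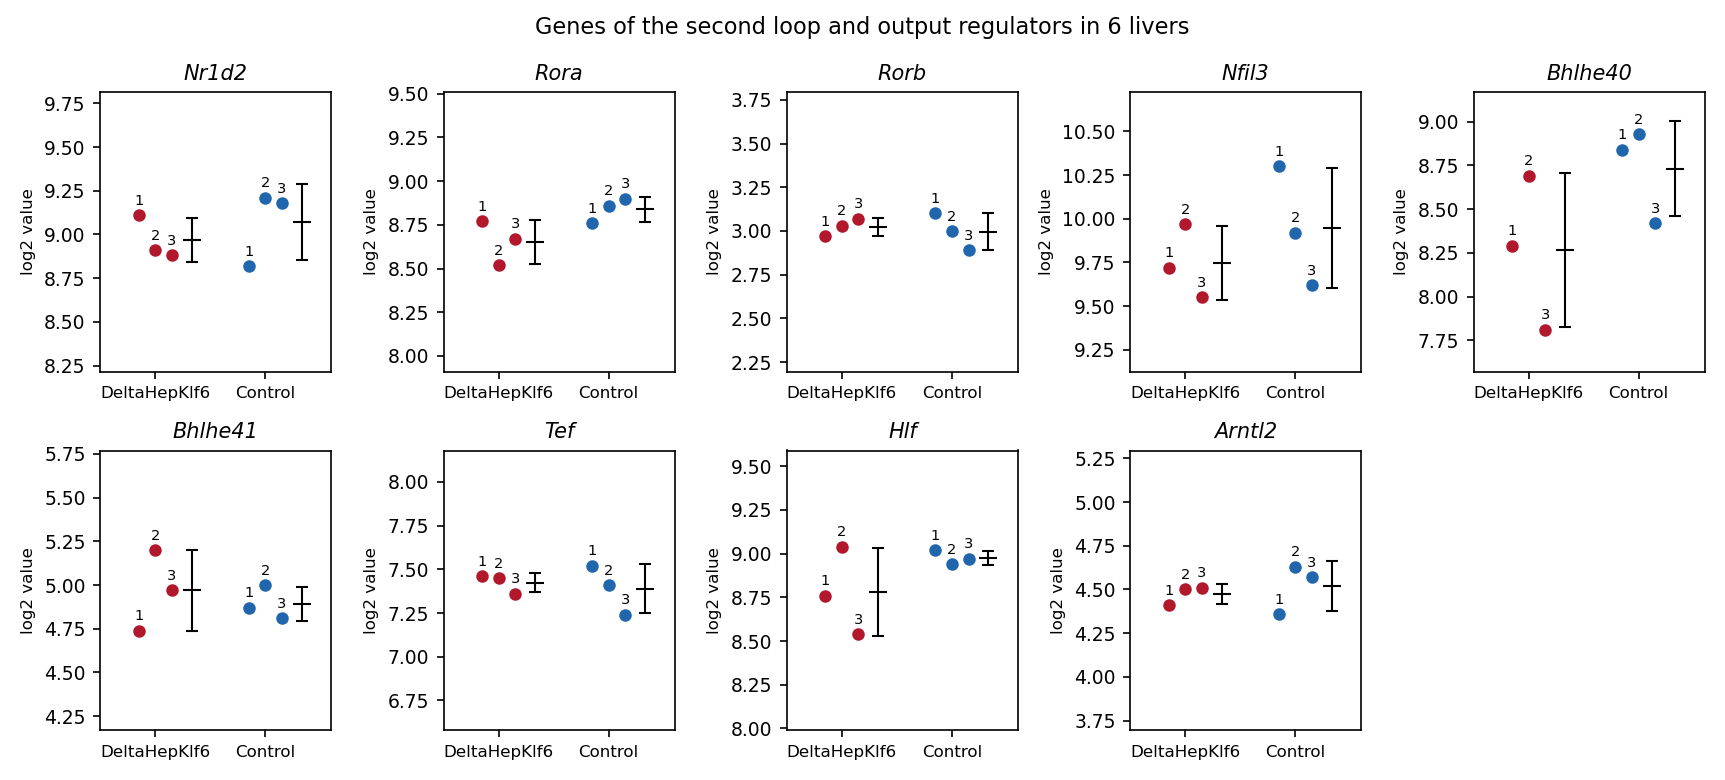
Log2 value (y axis, at least 1.6 units in every panel) of 9 genes of the second loop and the output in each liver, with the mouse number beside each point and mean ± SD (n = 3) as a black bar; DeltaHepKlf6 in red, Control in blue. Bhlhe40 has the widest scatter, and the groups overlap in every panel.

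Of 18 kinases, ligases and cofactors that act on clock proteins, 14 were measured, 3 higher and 11 lower in DeltaHepKlf6 with a median of -0.10, and limma called 0 of them, with 0 at an unadjusted p under 0.05. Prkaa2, a catalytic subunit of the energy sensor AMPK, which marks Cry1 for breakdown in mouse, was 7.96, 8.11 and 7.65 in DeltaHepKlf6 livers, against 8.13, 8.15 and 8.17 in Control livers. The difference was -0.24 ± 0.16 (SE), and the groups did not overlap, in 1 of the 14 genes of this list against 6.72% of all probe sets. Fbxl21, a ligase subunit for the Cry proteins, differed by 0.29 ± 0.20 (SE).

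A few genes with a daily rhythm in liver spread more widely than the measured clock genes themselves. Of 22 such output genes 20 were measured, 11 higher and 9 lower in DeltaHepKlf6 with a median of 0.03, and limma called 0, with 1 higher and 1 lower at an unadjusted p under 0.05, against 1.61% and 1.61% of all probe sets. Rgs16 was 9.68, 7.99 and 8.95 in DeltaHepKlf6 livers, against 11.12, 10.10 and 10.10 in Control livers. The highest DeltaHepKlf6 liver lay below the lowest Control liver. The 6 livers spanned 3.13 log2 units, several times the span of any of the 7 measured core clock genes, shared probe sets aside. The means were 8.87 ± 0.85 in DeltaHepKlf6 and 10.44 ± 0.59 in Control (SD, n = 3 each), a difference of -1.57 ± 0.49 (SE; limma, unadjusted p = 0.0177, adjusted p = 0.998), and from -1.97 to -1.125 with each array left out in turn. Alas1, the first and rate-limiting enzyme of heme synthesis, was 10.66, 10.84 and 10.73 in DeltaHepKlf6 livers, against 10.48, 10.28 and 10.49 in Control livers, a difference of 0.33 ± 0.13 (SE; limma, unadjusted p = 0.0499, adjusted p = 0.998) without overlap. Coq10b, a gene of coenzyme Q function, differed by 0.26 ± 0.13 (SE), also without overlap. Elovl3, a fatty acid elongase, differed by -0.45 ± 0.25 (SE), and by -0.20 without DeltaHepKlf6 3. The groups did not overlap in 2 of the 20 genes with DeltaHepKlf6 higher and in 1 with it lower, against 3.05% and 3.67% of all probe sets.

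Signals that set the liver clock from outside were read from further lists. Of 11 measured fasting and feeding genes, 4 were higher and 7 lower with a median of -0.14, and limma called 0, with 1 at an unadjusted p under 0.05, against 3.21% of all probe sets. That gene was Ppargc1a, a coactivator of fasting that induces Arntl with the Ror proteins in mouse. Ppargc1a was 9.39, 8.72 and 9.50 in DeltaHepKlf6 livers, against 8.35, 8.64 and 8.39 in Control livers, a difference of 0.74 ± 0.24 (SE; limma, unadjusted p = 0.0195, adjusted p = 0.998) without overlap, as in 6.72% of all probe sets. Fgf21, a fasting hormone, differed by -0.30 ± 0.20 (SE), and by -0.13 without DeltaHepKlf6 1. Of 7 measured glucocorticoid genes, Per1 among them, 2 were higher and 5 lower with a median of -0.12, and limma called 0, with 0 at an unadjusted p under 0.05. Tsc22d3, a direct glucocorticoid target, was 7.94, 8.03 and 7.38 in DeltaHepKlf6 livers, against 8.23, 8.24 and 8.22 in Control livers, a difference of -0.45 ± 0.20 (SE) without overlap, and of -0.245 without DeltaHepKlf6 3. Of 5 measured temperature genes, 2 were higher and 3 lower with a median of -0.07, and limma called 0, with 0 at an unadjusted p under 0.05. Hsp90aa1, the gene with the smallest p on that list, was dim, between 2.42 and 3.84, and differed by -0.59 ± 0.42 (SE). Hspa1a, a heat shock chaperone, ranged over 1.85 log2 units, with a difference of -0.52 ± 0.435 (SE) that was -0.085 without DeltaHepKlf6 1. Of 12 measured immediate early genes, induced by many of the acute stimuli that also raise Per1, 2 were higher and 10 lower with a median of -0.38, and limma called 0, with 0 at an unadjusted p under 0.05. The mean of that list was 6.45, 6.34 and 6.19 in DeltaHepKlf6 livers, against 7.28, 6.33 and 6.24 in Control livers, so Control 1 stood apart. Atf3, the member with the smallest p, differed by -0.88 ± 0.42 (SE), and by -0.39 without Control 1.

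Markers of other cell types were read beside these values, and limma called 0 of them. On each of the macrophage, neutrophil and lymphocyte lists 1 was lower at an unadjusted p under 0.05, against 1.61% of all probe sets. Over all genes, 9231 of 14860 were lower in DeltaHepKlf6. Of 8 macrophage and Kupffer cell markers 8 were lower in DeltaHepKlf6, with a median of -0.50 and list means of 7.49, 7.58 and 6.98 in DeltaHepKlf6 livers, against 8.11, 7.77 and 7.61 in Control livers. Their differences ran from -0.78 in Clec4f to -0.09 in Vsig4. The groups did not overlap in 4 of the 8, against 3.67% of all probe sets lower without overlap. Of 5 neutrophil markers 5 were lower, with list means of 4.89, 4.24 and 4.16 in DeltaHepKlf6 livers, against 5.78, 4.95 and 4.58 in Control livers, and of 5 lymphocyte markers 5 were lower, with a median of -0.17. Several of these sets were dim. By mean level the neutrophil sets stood between the 13.7th percentile of all genes, for S100a8, and the 50.3rd, for Retnlg. The lymphocyte sets stood between the 5.55th, for Ms4a1, and the 50.4th, for Cd3e. Endothelial markers were lower in 4 of 6, stellate markers in 3 of 5 and cholangiocyte markers in 2 of 3. The part of these cells in the phase contrast was not tested. Without Control 3, the liver with the pancreas markers, the difference in the contrast was 0.24, and without DeltaHepKlf6 3, the lowest on the macrophage list, it was 0.22.

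Genes whose pattern was most like the phase contrast were sought among 1091 genes brighter than the median and ranging over at least 1 log2 unit, by Pearson r over the 6 arrays. The highest r belonged to a gene with only a provisional name, at 0.94. Next came Rbmx2, an RNA-binding protein gene, at 0.85, the zinc finger gene Zfp865 at 0.81, the chemokine Cxcl11 at 0.80, Ppargc1a at 0.80 and Acot3, an acyl-CoA thioesterase, at 0.78. At the other end stood Dcps, an mRNA decapping enzyme, at -0.96, the macrophage scavenger receptor Cd163 at -0.91, the repressor Bcl6 at -0.89, smooth muscle actin Acta2 at -0.89 and the methyltransferase Nsun4 at -0.88. These r values come from 6 arrays and the extremes of many genes, and they are given as a description.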

How the data were processed

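Total RNA of 6 livers was measured, 1 array per mouse, with groups and mouse numbers from the sample titles. The authors deposited log2 values of 23332 probe sets, with Affymetrix Expression Console, RMA and limma named in the submitters' processing notes without versions or roles. RMA subtracts background, normalizes between arrays and summarises probes. The log2 scale is not stated for the deposited table and was inferred from its range of 0.65 to 14.35. Of the sets, 14996 named 1 gene, 1019 several and 7317 none here, and 14941 single-gene sets matched a RefSeq gene. No detection p-values were used, and precision is set by the number of arrays.

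DeltaHepKlf6 was compared with Control by limma 3.58.1 in R 4.3.3 over all probe sets, without filter or covariate, with Benjamini-Hochberg adjustment over the 23332 sets and a call at an adjusted p under 0.05. The fit was tested on simulated data. Differences are DeltaHepKlf6 minus Control. Permutation tests were exact and two-sided. The members and lists were chosen with earlier results of these data known. All measured core and second-loop genes are named, of every other list up to 5 by smallest unadjusted p, and 5 genes at each end of likeness to the phase contrast, provisional names and chemosensory receptors aside. Adding Nr1d2 to the day arm was chosen after seeing the data. Python 3.11.15 prepared tables and plots.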

Additional observations from a re-analysis of the deposited data

How the results depend on the processing

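Limma called 0 probe sets under each of the 13 alternatives. At an unadjusted p under 0.05 it counted 750 as reported, 444 and 233 without the dimmest 25% and 50%, 1797 without DeltaHepKlf6 2, and 674 to 799 without any other single array. The difference in the phase contrast was 0.38 without Per1 and lay between 0.20 and 0.33 under quantile normalization, equal array medians, arm medians, Clock in the night arm, Nr1d2 in the day arm and the loss of any other gene or array, with 0.22 to 0.31 for single arrays. None of these settings adds the probe sets that Per2 or Nr1d1 share with another gene. The set shared by Nr1d1 and Thra differed by -0.89, against 0.27 for the contrast. Whether the groups stay apart with that set in the day arm was not tested, so the range above does not cover it. Cry1 turned to -0.060 with array weights and ranged from -0.017 without Control 1 to 0.238 without Control 2. Bhlhe41 turned to -0.030 with array weights and ranged from -0.038 without DeltaHepKlf6 2 to 0.192 without DeltaHepKlf6 1. Tef ranged from -0.042 without Control 3 to 0.098 without Control 1, and Arntl2 from -0.127 without Control 1 to 0.0083 without Control 2. Rorb turned to -0.024 with quantile normalization and ranged from -0.027 without Control 3 to 0.078 without Control 1, and the cause of these turns was not tested. No other gene given here with its alternatives changed sign. The sample titles give mouse numbers without saying whether equal numbers pair the mice, and the main fit treats the mice as unpaired. Deviations of equal numbers correlated at -0.13, -0.17 and 0.21, which cannot decide this with 3 mice per group. The fit with the replicate block called 0 probe sets, with 884 at an unadjusted p under 0.05, against 750 as reported. Each of the 7 measured core genes has 1 single-gene probe set, so averaging sets was not possible, leaving out Per2 with Per1 changes nothing as Per2 is not in the day arm, and Npas2 was lost with the dimmest 50%. Dim probe sets such as Npas2, Bhlhe41, Arntl2 and Rorb limit what can be seen, as differences near background are compressed.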
